A study of Mus musculus with 18 samples.

Results

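A set of 10 genes of the vascular growth pathways were followed across the cell classes of mouse skin: the ligands Vegfa, Vegfc, Angpt2 and Apln, the receptors Flt1, Kdr, Flt4, Nrp1 and Tek, and the secreted proteoglycan Esm1. They were chosen by name, as 10 of the 32285 genes in the count tables, and all 10 were found in every table of the 10 mRNA libraries.

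Vascular endothelial growth factors are secreted proteins that make blood and lymphatic endothelial cells sprout, divide and become permeable. VEGFA acts on blood vessels through the receptors VEGFR1 (Flt1) and VEGFR2 (Kdr), with neuropilin 1 (Nrp1) as co-receptor, whereas VEGFC acts mainly on lymphatic vessels through VEGFR3 (Flt4). Angiopoietin 2 (Angpt2) is released by endothelial cells and is known to modulate TIE2 (Tek), the receptor that stabilises vessels, and apelin (Apln) and Esm1 are known markers of the endothelial tip cells that lead a sprout.

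In the mouse annotation of build GRCm38 (mm10), all 10 are protein-coding genes. Among the ligands, Vegfa (ENSMUSG00000023951) lies at chr17:46016993-46032369 on the minus strand, Vegfc at chr8:54077606-54187096 on the plus strand, Angpt2 (ENSMUSG00000031465) at chr8:18690263-18741562 on the minus strand and Apln (ENSMUSG00000037010) at chrX:48025146-48034853 on the minus strand. The receptor genes are Flt1 at chr5:147561604-147726011 and Kdr at chr5:75932827-75978458, both on the minus strand, and Flt4 at chr11:49609263-49652739, Nrp1 at chr8:128358604-128503363 and Tek at chr4:94739289-94874976, all on the plus strand. Esm1 (ENSMUSG00000042379) lies at chr13:113209659-113218098 on the plus strand.

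The upstream sequences of Apln and Kdr are shown because both genes rose in at least 1 cell class after expansion. They are the 250 bases before the annotated start, from RefSeq on GRCm38.p6, written 5′ to 3′ along the gene's strand, with the core of the hypoxia response element in capitals. Apln covers chrX:48034854-48035103 and Kdr chr5:75978456-75978705, both on the minus strand.
Apln: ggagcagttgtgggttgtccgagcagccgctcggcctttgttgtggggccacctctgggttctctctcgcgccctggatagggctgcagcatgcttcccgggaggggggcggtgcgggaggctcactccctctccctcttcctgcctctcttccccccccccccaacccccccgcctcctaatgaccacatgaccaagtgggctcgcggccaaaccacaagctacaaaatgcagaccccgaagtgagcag
Kdr: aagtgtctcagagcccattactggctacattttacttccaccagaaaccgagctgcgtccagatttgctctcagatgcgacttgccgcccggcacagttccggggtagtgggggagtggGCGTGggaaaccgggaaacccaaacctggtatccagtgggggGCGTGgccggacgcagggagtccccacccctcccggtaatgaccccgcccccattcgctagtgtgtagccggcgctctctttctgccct
The motif was searched as the letters ACGTG or GCGTG on either strand. Kdr had 2 matches and Apln had 0, which says only that these letters were not in that window. Flt1, which rose in smooth muscle-like cells, had 1 match and is not shown. Of the 9 genes of the set with an entry, 5 had a match in any of their promoters. Vegfa had 0 matches in promoter 1 and counts only through promoter 2. Among all 32851 single promoters of the same length, 38.6% had a match, a share of promoters and not of genes.

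The single-cell libraries compared 2 arms of mice. All mice underwent an operation with a tail-end incision and a path made under the back skin. In the expanded arm a hydrogel expander was placed there to stretch the skin, and the control arm got no expander. Back skin was digested after 1, 2 or 4 days and live DAPI-negative cells were sorted. Each arm had 5 libraries, 2 on day 1, 2 on day 2 and 1 on day 4, and a library of 1 arm and its partner of the other arm shared day and sequencing round. Each library pooled several mice. The labels give no genotype, strain, sex or age, and the operation itself was common to both arms, so differences are between operated skin with and without an expander.

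The libraries held 17726739 to 75470722 gene UMIs (unique molecular identifiers, 1 per captured mRNA molecule). After filtering, 45379 cells remained, 28557 control and 16822 expanded. Libraries shared at most 23 cell barcodes, 0.377% of the smaller library. The 10 genes gave from 359 UMIs (Esm1) to 37094 UMIs (Vegfa) over all libraries. Cells formed 30 clusters, of which 24 were given 1 of 16 class names from marker genes; 6 clusters with 6336 cells stayed unnamed. The 10 genes were in no marker list and were left out of the genes used for clustering. Classes are called "-like", since names were rebuilt from these libraries. Levels are CPM, a gene's UMIs relative to all UMIs of its class in a library on the one-million scale, and a mean is over the libraries in which the class had at least 20 cells.

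Several features of the libraries bear on several results. Cells of the expanded arm carried more UMIs, with a median per cell of 9673 against 5195.5 in blood endothelial-like cells and 11736 against 6083 in macrophage or monocyte-like cells. Fibroblast transcripts fell in classes that should not express them: all 6 of the fibroblast markers listed (Col1a1, Col1a2, Col3a1, Dcn, Sparc and Lum) were lower in dendritic-like, macrophage or monocyte-like, lymphatic endothelial-like, T cell-like and both keratinocyte-like classes, with median log2 fold changes between -4.43 and -3.16. Of the 5 neutrophil markers listed, 1 to 3 rose in 8 classes: 2 of 2 tested in blood endothelial-like (median log2 fold change 2.43) and basal keratinocyte-like (5.28), 2 of 3 in suprabasal keratinocyte-like (4.55) and dendritic-like (2.87), 3 of 4 in fibroblast-like (3.90), 2 of 4 in macrophage or monocyte-like (1.49), 1 of 1 in smooth muscle-like (3.88) and 1 of 2 in T cell-like cells (3.32). In the macrophage or monocyte-like class their summed level ran from 28.9 to 123 CPM in control and from 290 to 1884.9 CPM in expanded libraries. The part of these shifts in the results for the 10 genes was not tested.

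The endothelial classes carried their markers. The 13 endothelial identity genes (among them Pecam1, Cdh5 and Cldn5) summed to 6559.5 to 8810.8 CPM in blood endothelial-like libraries and to 3136.6 to 5233.8 CPM in lymphatic endothelial-like libraries, against 94.8 to 202 CPM in macrophage or monocyte-like libraries of the expanded arm. None of the 13 passed the test between arms (adjusted p under 0.05) in blood endothelial-like cells. The blood endothelial-like class was a single cluster (cluster 6), whose leading genes held the venular Sele and Selp and the fatty-acid binding Fabp4, so its values are those of that cluster. The smooth muscle-like class was also 1 cluster, led by Myh11, Acta2 and Des and by the pericyte genes Rgs5 and Notch3.

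**Figure D1:**
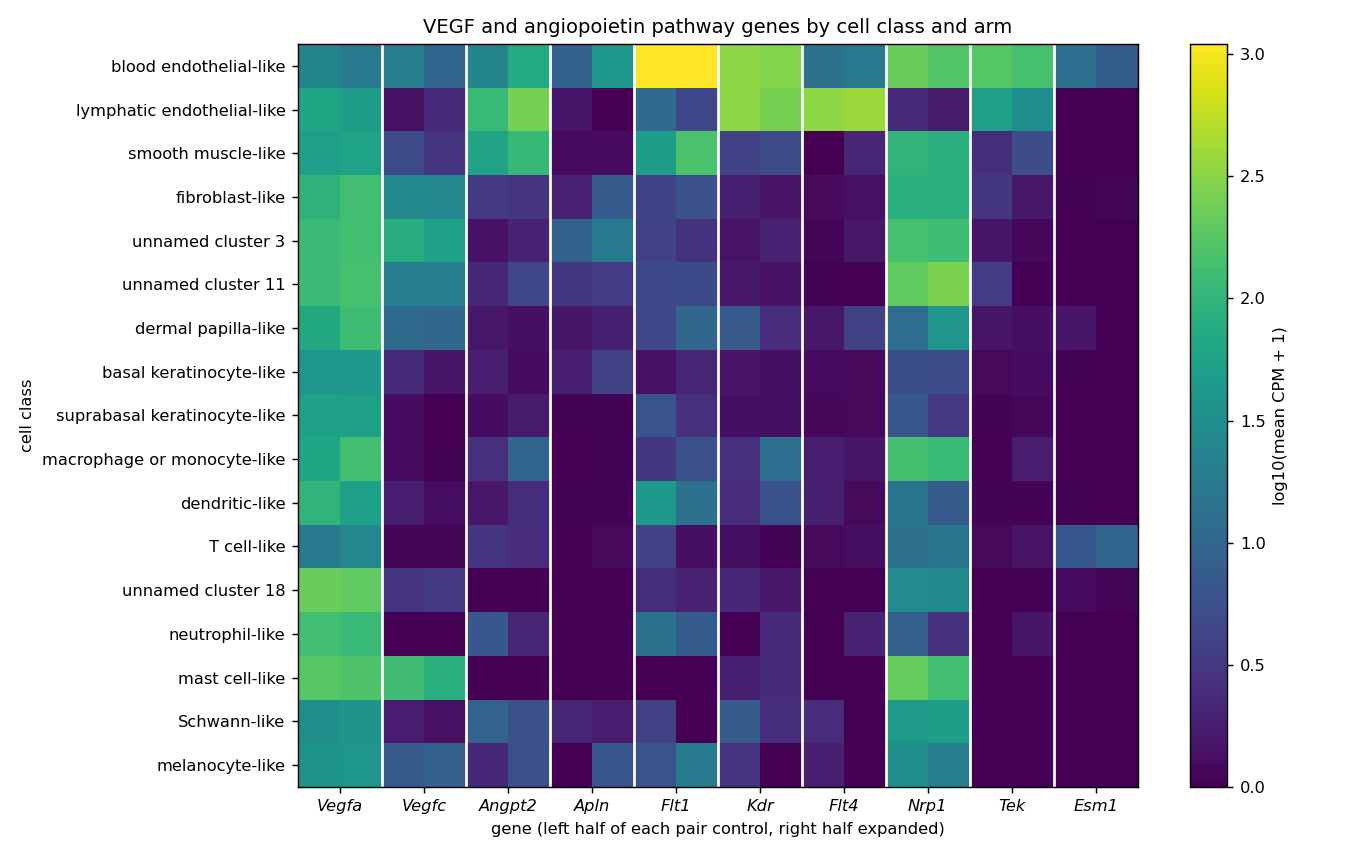
Mean level of each of the 10 genes in 17 cell classes or unnamed clusters, as log10 of mean CPM plus 1, with the control arm on the left and the expanded arm on the right of each pair. Flt1, Kdr and Tek are brightest in the blood endothelial-like row, Flt4 in the lymphatic endothelial-like row, and Vegfa is spread over nearly all rows.

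Ligand sources differed by gene. Vegfa was found in all 16 classes or unnamed clusters that had at least 20 cells in at least 4 control libraries. In control skin Angpt2 was instead highest in 3 vessel classes. Vegfc was highest in mast cell-like cells and an unnamed stromal cluster, and Apln in that stromal cluster and blood endothelial-like cells. These levels are descriptions, with no test between classes.

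Vegfa, the main blood vessel growth factor, was highest in cluster 18, an unnamed lymphocyte cluster led by Gzmc, Ifng, Cd8a and Xcl1, at 224 ± 108 CPM (SD, n = 5) in control and 197 ± 67.8 CPM in expanded libraries. Mast cell-like cells followed in control skin at 180 ± 120 CPM, and then came the unnamed stromal clusters 3 (led by Coch, Fmod and Cck) and 11 (led by Hapln1, Lrrc15 and Acan), at 117 ± 19.1 and 116 ± 40.9 CPM. Fibroblast-like cells were at 93.5 ± 22.9 CPM and both keratinocyte-like classes between 39.0 and 53.8 CPM. Neighbours in this order overlapped in their spread throughout the first 9 places. In expanded skin, macrophage or monocyte-like cells stood at 132 ± 41.4 CPM, with overlap to the classes before and after.

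Vegfc, the lymphatic growth factor, was highest in control mast cell-like cells at 126 ± 99.8 CPM and in cluster 3 at 77.8 ± 11.4 CPM. The mast cell-like libraries ran from 16.9 to 246 CPM in control skin, so their mean rests on a wide spread. Fibroblast-like cells had 26.9 ± 5.16 CPM, which did not overlap with cluster 3, and blood endothelial-like cells had 18.6 ± 4.43 CPM.

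Angpt2 was ordered without overlap at the top in control skin: lymphatic endothelial-like cells at 111 ± 18.6 CPM, smooth muscle-like cells at 58.8 ± 8.0 CPM and blood endothelial-like cells at 23.0 ± 6.1 CPM. The next class, Schwann-like cells, was at 8.02 ± 8.01 CPM. Apln was low in all classes of control skin, with 7.9 ± 3.3 CPM in cluster 3 and 7.81 ± 6.0 CPM in blood endothelial-like cells at the top.

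The receptors were largely endothelial. Flt1 stood at 1081 ± 96.8 CPM in blood endothelial-like cells of control skin, and the next class, smooth muscle-like cells, at 50 ± 28.1 CPM. Kdr was shared by blood endothelial-like (337 ± 23.7 CPM) and lymphatic endothelial-like cells (334 ± 85.6 CPM), with no other class above 6.57 CPM. Flt4 was at 335 ± 118 CPM in lymphatic endothelial-like cells and 13.1 ± 4.16 CPM in blood endothelial-like cells. Tek was at 171 ± 16.0 CPM in blood endothelial-like cells and 51.9 ± 32.0 CPM in lymphatic endothelial-like cells. Nrp1 was the exception: blood endothelial-like (226 ± 57.4 CPM), mast cell-like (212 ± 37.1 CPM), cluster 11 (199 ± 117 CPM), cluster 3 (141 ± 28.4 CPM) and macrophage or monocyte-like cells (140 ± 19.6 CPM) overlapped in that order. Esm1 was detected at 12.0 ± 5.01 CPM in blood endothelial-like cells and at 5.91 ± 8.36 CPM in T cell-like cells.

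Expanded and control skin were compared within each class by edgeR's quasi-likelihood test on UMIs summed per class and library, with day as a covariate, and a gene was called at a Benjamini-Hochberg adjusted p under 0.05 over all genes tested in that class. Nothing in the labels says that libraries of 1 arm and day came from separate experiments beyond their round, so p-values measure the spread between these pools of mice. The expanded arm is set against the control arm throughout, and a positive log2 fold change means higher in expanded skin.

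In blood endothelial-like cells, the ligands Angpt2 and Apln rose and Vegfc and Nrp1 fell. Angpt2, Apln, Vegfc and Nrp1 were the 4 genes called of 10 tested, against 11.5% of all genes tested in this class. Angpt2 was 27.9, 18.5, 14.9, 29.1 and 24.5 CPM in the control libraries (day 1 rounds 1 and 2, day 2 rounds 1 and 2, day 4) and 53.7, 47.9, 91.4, 91.9 and 69.7 CPM in the expanded ones. Every expanded library lay above every control library. Means were 23.0 ± 6.1 CPM in control and 70.9 ± 20.6 CPM in expanded skin, and the log2 fold change was 1.44 (SE 0.18, adjusted p = 0.000924). Over single mice identified by hashing antibodies, 7 control mice had 26.2 ± 13.2 CPM and 8 expanded mice 81.6 ± 28.4 CPM.

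**Figure D2:**
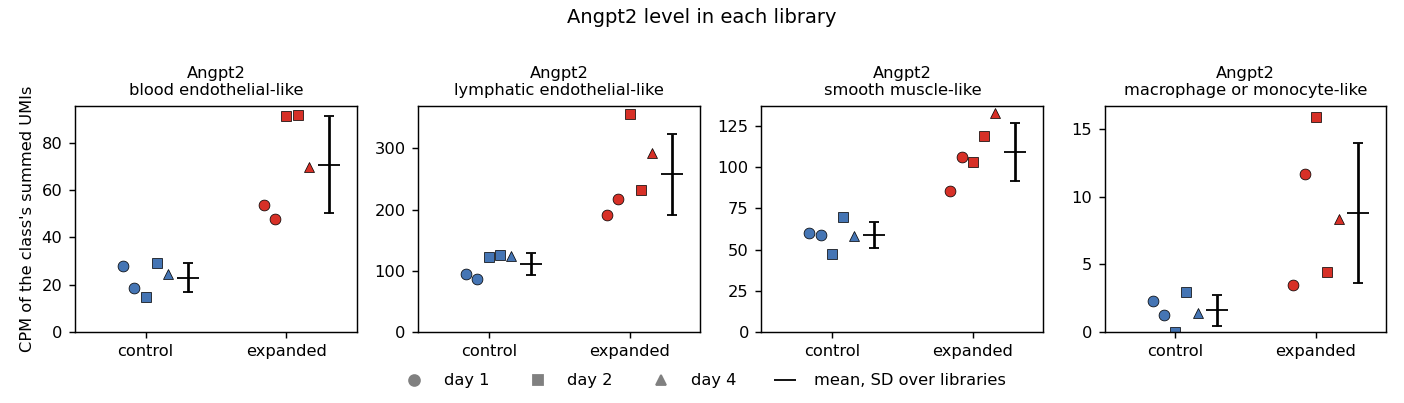
Angpt2 level in CPM in each library (points, by day) with mean and SD over 5 libraries per arm, in 4 cell classes. The expanded libraries lie above all control libraries in each of the 4 panels, with the smallest gap in the macrophage or monocyte-like class, where the lowest expanded library has 3.45 CPM and the highest control library 2.95 CPM.

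Apln, the apelin peptide gene, was 8.36, 4.0, 0, 15.2 and 11.5 CPM in the control libraries and 14.9, 18.1, 67.0, 58.9 and 38.2 CPM in the expanded ones. The lowest expanded library lay just under the highest control library, and both day 2 expanded libraries were the highest. The log2 fold change was 1.95 (SE 0.33, adjusted p = 0.00359), higher in 5 of 5 pairs. At an equal depth of 2000 UMIs per cell (211 control and 50 expanded cells were shallower and dropped), neither ligand passed: Angpt2 was 21.5 ± 10.4 against 38.9 ± 19.0 CPM (log2 fold change 0.74, adjusted p = 0.172) and Apln was 7.20 ± 6.37 against 26.1 ± 22.3 CPM (1.28, adjusted p = 0.264).

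Vegfc was 22.3, 22.9, 19.8, 14.5 and 13.3 CPM in control and 7.84, 6.9, 5.43, 5.74 and 16.9 CPM in expanded blood endothelial-like cells. The 4 expanded libraries of days 1 and 2 lay below all control libraries, and the day 4 expanded library lay within the control range. Vegfc fell by 1.13 on the log2 scale (SE 0.31, adjusted p = 0.0342). Nrp1, the co-receptor, was 127, 232, 249, 243 and 277 CPM in control and 141, 147, 162, 178 and 188 CPM in expanded libraries, where the day 1 round 1 control library was the lowest of all 10. Nrp1 fell by 0.55 on the log2 scale (SE 0.15, adjusted p = 0.0309), lower in 4 of 5 pairs. Both calls were fragile. The Vegfc call was lost without any 1 of 7 libraries (all of days 1 and 2 except control day 2 round 2, adjusted p from 0.0596 to 0.112) and after thinning to 2000 UMIs (0.0837). Over single mice the mean of Vegfc went the other way, at 7.7 ± 6.31 CPM in 7 control and 11.2 ± 12.3 CPM in 8 expanded mice. The medians over these mice were close, at 7.94 and 7.51 CPM, and the highest expanded mouse had 38.2 CPM. The Nrp1 call was lost without any 1 of 7 libraries (all but control day 1 round 1, control day 2 round 2 and expanded day 1 round 1, adjusted p from 0.0566 to 0.105). It was also lost with library totals (0.0652) and with mice as units (0.0847).

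The signalling receptors of blood endothelial-like cells were not called. Flt1 was 1081 ± 96.8 CPM in control and 1101 ± 134 CPM in expanded skin (log2 fold change -0.07, adjusted p = 0.746). Kdr was 337 ± 23.7 and 297 ± 22.8 CPM (-0.28, adjusted p = 0.129), and Tek was 171 ± 16.0 and 142 ± 32.2 CPM (-0.38, adjusted p = 0.11). Kdr passed as lower in 1 of 20 alternatives, with DESeq2 (-0.31, adjusted p = 0.0345). Tek also passed as lower in 1 of 20, edgeR's test with mice as units (-0.64, adjusted p = 0.0227). Flt4 was 13.1 ± 4.16 and 17.4 ± 2.68 CPM, and Vegfa made by these cells was 24.0 ± 12.1 and 16.8 ± 8.47 CPM. Esm1 was 12.0 ± 5.01 and 6.88 ± 4.3 CPM, lower in 5 of 5 pairs and not called (log2 fold change -0.86, adjusted p = 0.15). It passed in 2 of 18 alternatives, with the pairing by day and round as a block (adjusted p = 0.043) and without the filter on low counts (0.0311). Over single mice the mean of Esm1 went the other way, at 7.3 ± 6.88 CPM in 7 control and 10.4 ± 11.1 CPM in 8 expanded mice. The medians over these mice went with the libraries, at 11.1 and 6.25 CPM, and the highest expanded mouse had 33.4 CPM. Markers of other cells moved in this class as well. Of those tested, 2 of 4 mural markers (median log2 fold change -2.01; summed level of 5 from 152 to 228 CPM in control and from 53.1 to 136 CPM in expanded libraries), 2 of 3 macrophage markers (-1.72; 23.1 to 44.5 and 2.87 to 20 CPM) and 2 of 6 fibroblast markers (-2.90; 2455.3 to 5017.8 and 2674.8 to 4752.8 CPM) fell, and 2 of 2 neutrophil markers rose (0 to 6.54 and 3.14 to 24.5 CPM). Their part in the results of this class was not tested. In none of the 5 pairs did Esm1 differ in the direction of Angpt2 and Apln.

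In lymphatic endothelial-like cells, Angpt2 rose and Tek fell, 2 of 5 genes tested against 11.6% of all genes. Angpt2 was 95.2, 86.0, 123, 125 and 124 CPM in control and 191, 218, 356, 232 and 293 CPM in expanded libraries. All expanded libraries lay above all control libraries, and the log2 fold change was 1.15 (SE 0.18, adjusted p = 0.000452). Tek, the receptor for Angpt2, was 67.2, 86.0, 0, 54.5 and 52.0 CPM in control and 43.8, 27.7, 16.3, 31.9 and 30.5 CPM in expanded libraries, with 0 UMIs in the day 2 round 1 control library. Tek fell by 1.02 on the log2 scale (SE 0.28, adjusted p = 0.0244) and was lower in 4 of 5 pairs.

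The lymphatic receptor Flt4 was 451, 385, 161, 408 and 269 CPM in control and 516, 309, 285, 451 and 341 CPM in expanded lymphatic endothelial-like cells. The 2 ranges overlapped almost fully (log2 fold change 0.08, SE 0.21, adjusted p = 0.851). Kdr was lower in 5 of 5 pairs, at 334 ± 85.6 and 260 ± 86.3 CPM, and did not pass (-0.49, adjusted p = 0.116). The Tek call was lost without any 1 of 5 libraries (both day 4 libraries, both day 1 round 2 libraries and control day 2 round 2; adjusted p from 0.0736 to 0.0968), with DESeq2 (0.0647) and after thinning (0.0756).

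In smooth muscle-like cells, Angpt2 and Flt1 rose, 2 of 4 genes tested against 17.8% of all genes. Angpt2 was 60, 59.0, 47.3, 69.8 and 58.1 CPM in control and 85.7, 106, 103, 119 and 133 CPM in expanded libraries, with no overlap. The log2 fold change was 0.77 (SE 0.16, adjusted p = 0.00524), and it was 0.50 with an adjusted p of 0.167 after thinning to 2000 UMIs. Flt1 was 76.9, 72.9, 14.8, 59.6 and 26.0 CPM in control and 119, 34.5, 172, 215 and 219 CPM in expanded libraries.

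The day 1 round 2 expanded library had less Flt1 than 3 control smooth muscle-like libraries, and the other expanded libraries lay above all controls (log2 fold change 1.44, SE 0.46, adjusted p = 0.0447). The Flt1 call was lost with the replicate block (adjusted p = 0.0513), with DESeq2 (0.131) and without any 1 of 7 libraries (all but control day 1 rounds 1 and 2 and expanded day 1 round 2; adjusted p up to 0.204). Of the smooth muscle-like cells with a Flt1 UMI, 27.4% in control and 25.3% in expanded skin carried 3 or more endothelial identity genes, against 3.41% and 8.61% of those without one; the endothelial genes Plvap and Eng also rose in this class, by 1.08 and 0.66 on the log2 scale. The part of endothelial transcripts in the Flt1 result was not tested. Vegfa (51.7 ± 8.36 and 56.7 ± 19.7 CPM) and Nrp1 (96.5 ± 20 and 85.2 ± 17.6 CPM) were not called.

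In macrophage or monocyte-like cells, Kdr and Angpt2 rose from very low levels, 2 of 5 genes tested against 25.1% of all genes. Kdr was 0.959, 2.07, 1.48, 1.07 and 2.74 CPM in control and 5.74, 11.0, 13.4, 7.7 and 22.0 CPM in expanded libraries, without overlap (log2 fold change 2.82, SE 0.35, adjusted p = 0.00108). Angpt2 was 2.3, 1.24, 0, 2.95 and 1.37 CPM in control and 3.45, 11.7, 15.9, 4.44 and 8.36 CPM in expanded libraries, again without overlap (2.25, SE 0.55, adjusted p = 0.0147). The Angpt2 call was lost without either day 4 library (adjusted p 0.0515 and 0.0542).

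The class changed in its make-up between arms. Cluster 9, led by C1qc, C1qb and Folr2, gave 76.5% of its control cells, and cluster 4, led by Chil3, Arg1 and Ly6c2, gave 93.0% of its expanded cells. Within cluster 4 alone, Kdr was 4.2 ± 5.32 CPM in 4 control libraries and 12.8 ± 6.30 CPM in 5 expanded ones, which is as large a fold change (2.75) but not called (adjusted p = 0.157). Angpt2 in cluster 4 was 5.61 ± 6.82 and 9.26 ± 5.10 CPM (1.23, adjusted p = 0.563). In cluster 9 Kdr was 1.93 ± 0.834 CPM in control libraries and 2.61 ± 2.29 CPM in 3 expanded ones.

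The cells with these UMIs were also read for other endothelial transcripts, whose part in the results was not tested. Of 188 expanded macrophage or monocyte-like cells with a Kdr UMI, 2.66% carried 3 or more endothelial identity genes, against 1.85% of the cells without one; of the 17 such control cells it was 23.5%. For Angpt2, with 216 expanded cells, the share was 3.70% against 1.74%, and with 27 control cells 3.70% against 1.66%. After thinning to 2000 UMIs, 0.218% of control and 2.10% of expanded macrophage or monocyte-like cells had a Kdr UMI, and in fibroblast-like cells, a class that should lack Kdr, it was 0.17% and 0.159%. Pecam1, an adhesion gene of endothelial and myeloid cells, also rose in the class (6.25 to 19.4 CPM, log2 fold change 1.60), whereas Cdh5 was 4.04 and 3.39 CPM and Cldn5 2.09 and 2.25 CPM.

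Vegfa in macrophage or monocyte-like cells was 43.7, 53.3, 14.1, 105 and 83.0 CPM in control and 84.4, 128, 117, 133 and 198 CPM in expanded libraries. It was higher in 5 of 5 pairs and just missed the threshold (log2 fold change 1.05, SE 0.36, adjusted p = 0.0536). Vegfa passed with the replicate block (adjusted p = 0.016), with DESeq2 (0.0272) and with mice as units in edgeR's test (0.000279). Means were 73.6 ± 50.6 CPM in 13 control and 150 ± 38.9 CPM in 12 expanded mice. The fit over mice counts mice that shared a pool as separate units, unlike the test over libraries. Within cluster 4 alone it was 183 ± 43.6 and 151 ± 33.3 CPM (-0.21, adjusted p = 0.765), and in cluster 9 it was 37.9 ± 23.2 and 42.8 ± 30.6 CPM. Vegfa was the higher in cluster 4 in both arms, and the part of the change in cluster shares in the class value was not tested. Nrp1 was 140 ± 19.6 and 111 ± 61.8 CPM and was not called (adjusted p = 0.142). Without the day 1 round 1 expanded library, which had 219 CPM, Nrp1 was called lower (log2 fold change -0.81, adjusted p = 0.00812).

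**Figure D3:**
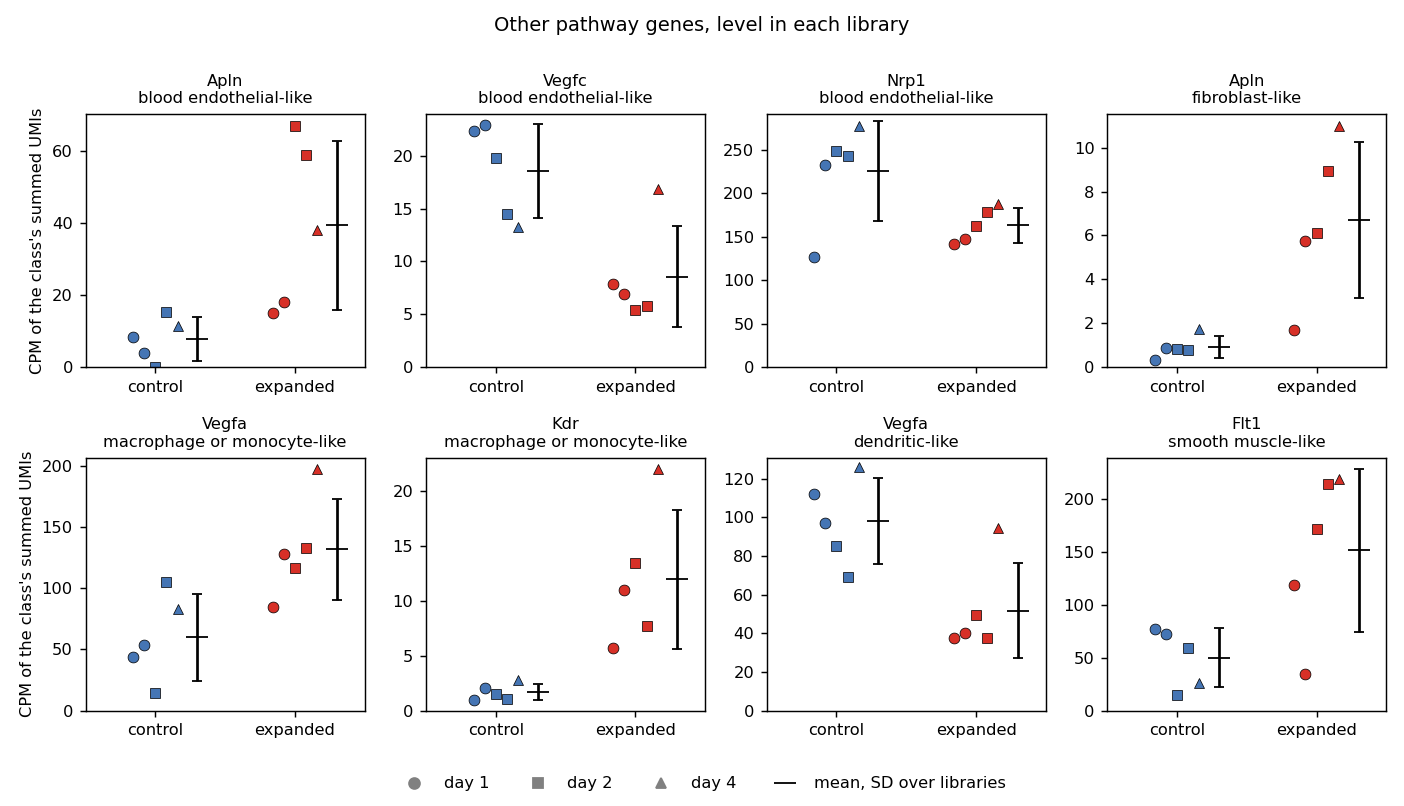
Level in CPM in each library (points, by day) with mean and SD over 5 libraries per arm, for 8 gene and class pairs. Apln and Kdr are higher in the expanded arm, Vegfc and Nrp1 in blood endothelial-like cells and Vegfa in dendritic-like cells are lower, and the day 4 expanded library stands above the other expanded libraries for Vegfc and for Vegfa in dendritic-like cells.

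In dendritic-like cells, Vegfa, Flt1 and Nrp1 fell, 3 of 4 genes tested against 16.8% of all genes. Vegfa was 112, 97.3, 85.1, 69.3 and 126 CPM in control and 37.3, 39.9, 49.6, 37.6 and 94.4 CPM in expanded libraries. The 4 expanded libraries of days 1 and 2 lay below all controls, and that of day 4 lay among them (log2 fold change -1.20, SE 0.20, adjusted p = 0.00437). Flt1 was 26.2, 40.9, 24.1, 58.7 and 57.2 CPM in control and 9.71, 8.41, 8.21, 16.7 and 20.8 CPM in expanded libraries, with no overlap (-1.96, SE 0.25, adjusted p = 0.00193). Nrp1 went from 14.2 ± 2.21 to 6.73 ± 4.05 CPM (-1.34, SE 0.30, adjusted p = 0.0155), a call lost without either day 4 library (0.0504 and 0.0528).

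The dendritic-like class held cluster 2, led by Ear2, Ccl17 and Mgl2, and cluster 20, led by Ccl22, Ccr7, Xcr1 and the Langerhans cell genes Cd207 and Ltc4s. Cluster 20 gave 14.3% of the control and 32.2% of the expanded cells. In cluster 2 alone Vegfa went from 115 ± 27.1 to 55.7 ± 37.8 CPM and was called (-1.38, adjusted p = 0.00844), as were Flt1 and Nrp1, against 16.3% of all genes tested in cluster 2. In cluster 20 it went the other way, from 17.9 ± 9.70 to 42.8 ± 18 CPM, and did not pass (0.90, adjusted p = 0.132). Flt1 in cluster 2 went from 48.1 ± 19.7 to 16.6 ± 8.31 CPM. The summed level of 5 macrophage markers was 4605.3 to 8268.8 CPM in control and 1681.5 to 4439.5 CPM in expanded dendritic-like libraries, and its part in these results was not tested.

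In fibroblast-like cells, Apln rose and Tek fell, 2 of 8 genes tested against 33.6% of all genes. Apln was 0.331, 0.89, 0.837, 0.777 and 1.74 CPM in control and 1.67, 5.73, 6.13, 8.96 and 11.0 CPM in expanded libraries. It was higher in 5 of 5 pairs (log2 fold change 2.57, SE 0.38, adjusted p = 0.000696), and only the day 1 round 1 expanded library was within the control range. Tek, which is not a typical fibroblast gene, went from 2.07 ± 0.934 to 0.566 ± 0.293 CPM (-2.05, SE 0.48, adjusted p = 0.00734). Vegfa was 88.7, 102, 121, 58.7 and 97.2 CPM in control and 102, 184, 118, 120 and 128 CPM in expanded libraries, higher in 4 of 5 pairs without passing (0.23, adjusted p = 0.443).

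Fibroblast-like cells also changed in make-up. Cluster 0, led by Col1a2, Col1a1 and Cpz, was 41.9% of the control and 3.75% of the expanded cells, and cluster 7, led by Cadps, Igfbp2, Mme and Tnc, was 14.8% and 54.4%. In cluster 7 alone, 4 of the genes were called, against 25% of all genes tested there: Apln rose (2.27 ± 1.60 to 8.57 ± 4.21 CPM; log2 fold change 1.63, adjusted p = 0.0224), Flt1 rose (1.88, adjusted p = 0.0124), Vegfc fell (45.0 ± 8.70 to 27.6 ± 7.94 CPM; -0.79, adjusted p = 0.00153) and Nrp1 fell (-0.69, adjusted p = 0.0224). Over the whole class Vegfc was 26.9 ± 5.16 and 25.4 ± 7.16 CPM and was not called (-0.32, adjusted p = 0.0643). In cluster 1 alone Apln was 1.19 ± 0.811 and 1.93 ± 1.78 CPM (0.83, adjusted p = 0.547), and with clusters drawn at resolution 2 the class value was 1.48 (adjusted p = 0.0611).

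Among keratinocytes, Flt1 and Nrp1 were called lower in suprabasal keratinocyte-like cells, 2 of 3 genes tested against 17.7% of all genes, at levels near the limit of detection: Flt1 went from 5.21 ± 1.23 to 1.57 ± 0.857 CPM (-1.68, SE 0.39, adjusted p = 0.013) and Nrp1 from 5.85 ± 2.84 to 2.20 ± 1.35 CPM (-1.36, SE 0.36, adjusted p = 0.0222). Pecam1 fell there too, by 1.14 on the log2 scale. Without either day 4 library Flt1 was not called (0.0602 and 0.0707), nor was Nrp1 without 1 of 4 libraries (day 1 round 2 or day 4 of either arm; 0.0654 to 0.12). Vegfa, the ligand that keratinocytes are known to make, was 53.8 ± 11.2 and 51.8 ± 11.8 CPM in suprabasal and 39.0 ± 10.8 and 40.6 ± 11.1 CPM in basal keratinocyte-like cells, with adjusted p of 0.793 and 0.58.

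None of the genes was called in basal keratinocyte-like cells (2 tested, against 6.38% of all genes), T cell-like cells (3 tested, 0.697%) or Schwann-like cells (2 tested, 0.168%), and none had an unadjusted p under 0.05 there. DESeq2 called none of them in these 3 classes. In T cell-like cells Vegfa was higher in 5 of 5 pairs, at 17.1 ± 9.63 and 24.8 ± 8.80 CPM (log2 fold change 0.48, adjusted p = 0.557). Esm1 in T cell-like cells was 5.91 ± 8.36 and 8.67 ± 8.44 CPM.

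The effect of expansion was also compared between days. Of 53 gene and class tests of an arm-by-day difference, 0 passed in edgeR's quasi-likelihood test, against 0.00185% of 108194 such tests over all genes, and 4 had an unadjusted p under 0.05. Day 4 rested on 1 library per arm. Angpt2 in blood endothelial-like cells had log2 fold changes of 1.06 on day 1, 1.90 on day 2 and 1.44 on day 4 (SE 0.27, 0.30 and 0.35), and Apln 1.48, 2.61 and 1.66. In lymphatic endothelial-like cells Angpt2 was 1.12, 1.19 and 1.16, nearly the same on the 3 days. The lowest unadjusted p of edgeR's test was that of Flt1 in smooth muscle-like cells (-0.14, 2.12 and 2.90; adjusted p = 0.63), followed by Vegfc in blood endothelial-like cells (-1.75, -1.60 and 0.28).

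Each ligand's UMIs were next divided among the classes of a library, which moves with the number of cells of a class as well as with its level. In control skin fibroblast-like cells held the largest share of Vegfa and Vegfc. In expanded skin macrophage or monocyte-like cells (Vegfa) and cluster 3 (Vegfc) reached similar shares in the mean. For Vegfa the expanded libraries differed by day. On day 1 fibroblast-like cells held 41.1% and 29.8%, and macrophage or monocyte-like cells 4.31% and 7.97%. On day 2 fibroblast-like cells held 19.4% and 14.7%, and macrophage or monocyte-like cells 45.2% and 38.8%. The day 4 library had 17.2% and 30.7%. None of the 18 ligand and class shares passed after adjustment (exact permutation test of 5 against 5 libraries, smallest possible p 0.00794, lowest adjusted p 0.0612). Some passed at an adjusted p of 0.0476 in the exact permutation test without 1 library: Angpt2, Vegfa and Vegfc in fibroblast-like cells, Vegfa in dendritic-like cells, and Vegfa and Angpt2 in macrophage or monocyte-like cells without expanded day 1 round 1; Angpt2 in fibroblast-like cells, Vegfa in dendritic-like cells and Vegfc in cluster 3 without control day 2 round 1; and Angpt2 in fibroblast-like and lymphatic endothelial-like cells and Apln in fibroblast-like cells without control day 2 round 2.

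For Vegfa, fibroblast-like cells held 51.7% ± 13.0 (SD, n = 5) of the UMIs in control and 24.4% ± 10.9 in expanded libraries, lower in 5 of 5 pairs (exact permutation p = 0.0159, adjusted p = 0.0612). Dendritic-like cells held 14.7% ± 5.57 and 4.92% ± 2.60 (exact permutation p = 0.00794, adjusted p = 0.0612), and macrophage or monocyte-like cells 5.52% ± 5.27 and 25.4% ± 18.4 (exact permutation p = 0.0635, adjusted p = 0.104). Over all kept cells of a library, Vegfa was 57.9 to 100 CPM in control and 76.3 to 96.9 CPM in expanded skin, so the total overlapped while the classes that held it shifted in these means. For Vegfc, fibroblast-like cells held 64.1% ± 9.36 and 39.1% ± 11.9, and cluster 3 held 21.7% ± 8.42 and 40.7% ± 7.63 (adjusted p = 0.0612 for both, exact permutation test). The Vegfc total was 14.3 to 23.6 CPM in control and 7.02 to 19.9 CPM in expanded skin.

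For Angpt2, the total over all cells was 3.18 to 6.28 CPM in control and 7.37 to 19.6 CPM in expanded libraries, without overlap. Lymphatic endothelial-like cells held 21.6% ± 7.88 of its UMIs in control and 37.5% ± 8.10 in expanded skin, and blood endothelial-like cells 18.6% ± 6.57 and 29.1% ± 12.1. Fibroblast-like cells, at a low level per cell but many in number, held 26.0% ± 12.9 and 2.33% ± 1.71, and smooth muscle-like cells 23.7% ± 4.10 and 15.8% ± 4.74. For Apln the total was 0.792 to 1.83 CPM in control and 3.85 to 5.49 CPM in expanded libraries. Blood endothelial-like cells held 20.2% ± 14.7 and 43.0% ± 18.4, and cluster 3 held 36.1% ± 23.7 and 30.2% ± 25.0. These expanded means mixed unlike days. On day 1 blood endothelial-like cells held 17.0% and 31.0%, and cluster 3 held 65.6% and 47.3%. On day 2 blood endothelial-like cells held 50.3% and 55.4%, and cluster 3 held 16.3% and 13.5%. The day 4 library had 61.2% and 8.16%. In control libraries cluster 3 ran from 9.23% to 66.7%.

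**Figure D4:**
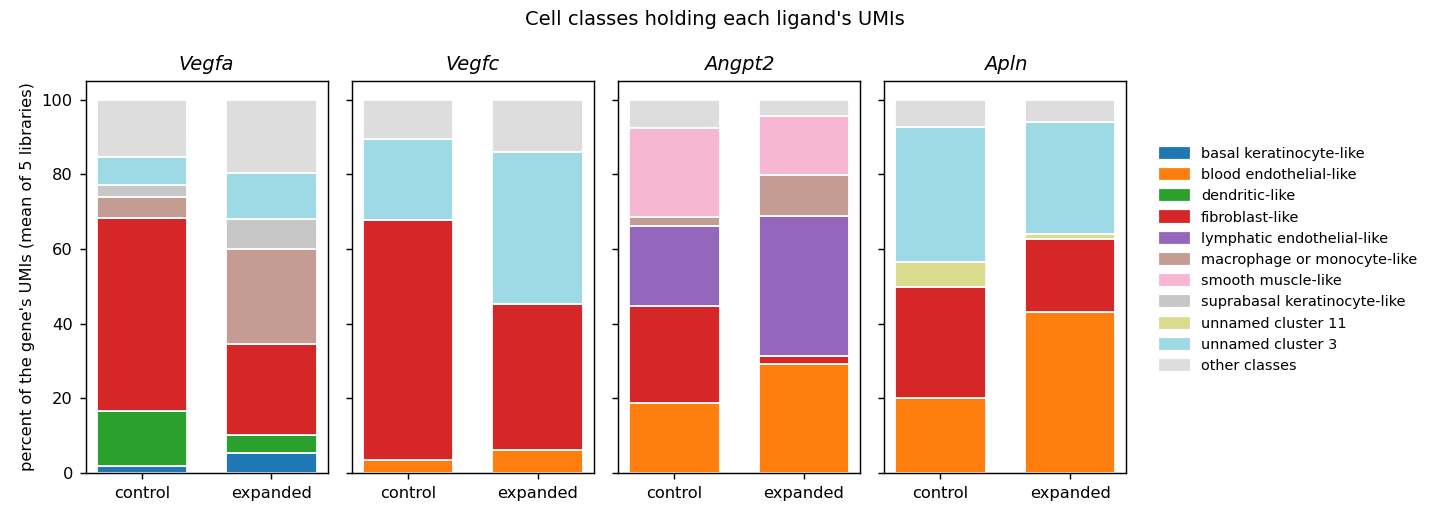
Share of each ligand's UMIs held by each class, as the mean percent over 5 libraries per arm, for Vegfa, Vegfc, Angpt2 and Apln. The fibroblast-like part is smaller in the expanded bar of each ligand, and the endothelial-like parts of Angpt2 and Apln are larger.

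The receptor-bearing cells themselves were counted as a share of non-immune cells. Blood and lymphatic endothelial-like cells made up 10.2% ± 3.18 in control and 15% ± 2.69 in expanded libraries, higher in 5 of 5 pairs (exact permutation test, p = 0.0159), and without control day 1 round 1 the exact permutation p was 0.0556. The difference was 4.84 percentage points, of which the blood endothelial-like cells gave 7.62% and 9.38% (exact permutation p = 0.413) and the lymphatic ones 2.54% and 5.61% (exact permutation p = 0.0238). As a share of all kept cells the endothelial difference was 1.80 percentage points (exact permutation p = 0.302), and an exact sign-flip permutation within the 5 pairs cannot reach 0.05. Sorting and digestion can set such shares, and their part was not tested.

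When endothelial cells were clustered again by themselves, the genes fell on different subclusters. This is a description, since several subclusters had fewer than 4 libraries with 20 cells. Vegfc was concentrated in the arterial-like subcluster (led by Gkn3, Gja5 and Alpl), at 91.6 ± 37.3 CPM in 3 control libraries and 82.0 ± 21.4 CPM in 2 expanded ones, while the capillary-like subcluster had 5.66 ± 8.08 CPM in 4 control libraries and the venular-like one 14.1 ± 5.33 and 3.91 ± 4.25 CPM. Angpt2 was nearly absent from the arterial-like subcluster, with 2 UMIs in 180 control and 1 UMI in 114 expanded cells.

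Among the lymphatic cells, the subcluster led by Ccl21a and Lyve1 had an Angpt2 level of 45.7 ± 22.4 CPM in 5 control and 218 ± 91.5 CPM in 5 expanded libraries. An unnamed subcluster led by Fibin, Spp1 and Cldn11, whose best match was lymphatic, was already at 273 ± 27.2 CPM in 4 control libraries and at 389 ± 150 CPM in 3 expanded ones. In the venular-like subcluster, led by Ackr1 and Sele, Angpt2 was 17.4 ± 3.78 CPM in 5 control and 57.0 ± 22.0 CPM in 3 expanded libraries. Apln was highest in 2 unnamed blood subclusters: the one led by Prdm1, Adamts4 and Stc1 had 9.80 ± 10.3 CPM in 5 control and 52.4 ± 45.5 CPM in 4 expanded libraries, and the one led by Tmem260 and Apcdd1 had 11.5 ± 16.3 and 76.8 ± 59.1 CPM.

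Nrp1 was highest in the capillary-like subcluster (led by Aqp7, Rbp7 and Btnl9), at 508 ± 12.4 CPM in 4 control libraries. That subcluster held 338 control and 49 expanded cells, and the only expanded library with 20 of them had 288 CPM. In the subcluster led by Prdm1, with 415 control and 296 expanded cells, Nrp1 was 161 ± 61.0 and 158 ± 28.7 CPM. The part of the smaller number of capillary-like cells in the lower Nrp1 of the whole class was not tested. In the 2 lymphatic subclusters Nrp1 was at most 1.67 CPM. Esm1 in the subcluster led by Tmem260 was 86.9 ± 25.2 CPM in 2 control libraries, the highest control mean, and 13.3 ± 12.0 CPM in 3 expanded ones. The highest expanded mean was in the subcluster led by Srarp and Lrat, at 25.6 ± 34.3 CPM in 3 libraries.

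Other genes of the pathway were read from lists chosen with these data already known, and are given by counts. Of 14 further ligands, receptors and regulators, 7 were tested in blood endothelial-like cells: Sema3a, a secreted guidance factor that binds neuropilins, rose (1.86 to 11.5 CPM; log2 fold change 2.02), and the co-receptor Nrp2 (280 to 186 CPM; -0.71) and the TIE2 phosphatase Ptprb (607 to 468 CPM; -0.50) fell. The median of the 7 was -0.19, beside 0.02 over all genes tested in the class, of which 11.5% were called. Nrp2 also fell in lymphatic endothelial-like (-0.84), dendritic-like (-0.73), macrophage or monocyte-like (-0.94), basal (-1.66) and suprabasal keratinocyte-like cells (-1.01).

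In lymphatic endothelial-like cells Sema3a rose as well (159 to 352 CPM; 1.06), and Tie1, the orphan receptor that pairs with TIE2, fell (179 to 121 CPM; -0.64). In fibroblast-like cells 2 of 10 tested rose and 3 fell, in a class where 33.6% of all genes were called. Sema3a (1.47), itself one of the leading genes of cluster 7, and Ccbe1 (59.9 to 126 CPM, 0.81), a secreted factor needed to activate VEGFC, rose. Angpt4 (-1.31), Sema3c (-0.96) and Angpt1 (13.6 to 8.41 CPM, -0.90), the activating ligand of TIE2, fell. In macrophage or monocyte-like cells Sema3c rose from 0.874 to 7.76 CPM (2.94), and in suprabasal keratinocyte-like cells Sema3c fell (-0.57).

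Of the 6 genes listed as responsive to VEGF, 3 fell and 0 rose in blood endothelial-like cells: the calcineurin regulator Rcan1 (402 to 193 CPM; -1.18) and the nuclear receptors Nr4a2 (233 to 101 CPM; -1.34) and Nr4a1 (228 to 125 CPM; -1.0). The median of the list was -0.81 there, beside 0.02 over all genes, of which 11.5% were called. These genes also respond to other stimuli, and they fell in other classes too: 5 of 6 in suprabasal keratinocyte-like cells (Nr4a1, Egr3, Rcan1, Dusp5 and Nr4a2, from -0.86 to -1.15), 4 of 6 in lymphatic endothelial-like cells (Nr4a2, Nr4a1, Dusp5 and Egr3, from -0.94 to -1.43), 4 of 6 in smooth muscle-like cells (Nr4a2, Rcan1, Adamts1 and Nr4a1, from -0.83 to -1.18), and Rcan1 (-3.97), Egr3 (-2.80) and Nr4a1 (-0.59) in macrophage or monocyte-like cells. In fibroblast-like cells Egr3 rose (1.21) and Nr4a1 fell (-0.59), and in dendritic-like cells Rcan1 rose (9.82 to 27.7 CPM, 1.21). Of all genes tested, 17.7% were called in suprabasal keratinocyte-like, 11.6% in lymphatic endothelial-like and 17.8% in smooth muscle-like cells. The share was 25.1% in macrophage or monocyte-like, 33.6% in fibroblast-like and 16.8% in dendritic-like cells.

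Of 14 Notch and sprouting genes tested in blood endothelial-like cells, 1 rose and 1 fell: the tip-cell potassium channel subunit gene Kcne3 rose from 1.42 to 9.38 CPM (2.35) and the Notch ligand Jag1 fell from 69.9 to 40.4 CPM (-0.83). The median of the 14 was -0.09, in a class where 11.5% of all genes were called. In macrophage or monocyte-like cells Pdgfb (-2.49) and Nid2 (-1.02) fell, and in suprabasal keratinocyte-like cells Pdgfb fell (-1.42). The receptor Notch1 fell in lymphatic endothelial-like (-0.61), smooth muscle-like (-0.55) and dendritic-like cells (-1.63), the ephrin gene Efnb2 fell in lymphatic endothelial-like cells (243 to 134 CPM; -0.96), and the netrin receptor gene Unc5b rose in dendritic-like cells (0.695 to 3.36 CPM; 2.01).

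Of 10 hypoxia response genes, 9 were tested in blood endothelial-like cells and 1 of them, Ndrg1, fell (-0.37), against 11.5% of all genes. The list median was -0.32. In macrophage or monocyte-like cells 3 of 9 rose, the glucose transporter Slc2a1 (26.7 to 53.1 CPM; 0.91), Bnip3 (0.67) and Ankrd37 (1.46), with a median of 0.49 beside 0.02 over all genes and with 25.1% of all genes called in the class. In fibroblast-like cells Epas1 (20.2 to 90.3 CPM; 1.82) and Slc2a1 (1.03) rose and Bnip3 fell (-0.42), 3 of 9 against 33.6% of all genes. In suprabasal keratinocyte-like cells Ndrg1 (-1.05), Adm (-1.04), Epas1 (-0.57) and Hif1a (-0.50) fell, 4 of 9 against 17.7% of all genes. Hif1a rose in lymphatic endothelial-like cells (108 to 319 CPM; 1.43) and fell in smooth muscle-like cells (-0.59), and Slc2a1 fell in dendritic-like cells (-0.42).

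The 13 endothelial identity genes were called lower or higher only outside blood endothelial-like cells. Emcn rose and Cd34 fell in both lymphatic endothelial-like and fibroblast-like cells, and in macrophage or monocyte-like cells Pecam1 rose while Cd34 (-2.79) and Eng (-1.47) fell. Cd34 (-2.66) and Fli1 (-0.77) fell in dendritic-like cells. Genes with the most similar pattern over 31 class-by-arm means, by Pearson r of log2(CPM + 1) among 15135 genes, were Ifi44, Myct1 and Dll4 for Kdr (0.95, 0.94 and 0.94), Klhl4, Nxpe2 and Gpr182 for Flt4 (0.96 each), Spaar, Gja4 and Sema5b for Angpt2 (0.89 each), Amhr2, Ptprg and Peg10 for Vegfc (0.90, 0.81 and 0.79) and Ptgs2, Rffl and Gm29340 for Vegfa (0.77, 0.75 and 0.70). The 31 points share 10 libraries, and r is given as a description.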

How the data were processed

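Single-cell mRNA was captured with 10x 3′ chemistry from 10 libraries, 5 per arm, and hashing antibodies marked mice in 8 further samples. The deposited tables hold UMI counts per gene and cell, whole numbers without normalization; per the submitters' processing notes, Cell Ranger 6.1.2 and mm10 were used. Filters removed cells under 200 genes, under 500 UMIs or over 10% mitochondrial UMIs, and also 1872 doublets (Scrublet, hashing). Clusters were drawn with scanpy 1.11.5 and leidenalg 0.10.2 on variable genes without the 10 genes described, and named from marker lists. Counts were summed per class and library (at least 20 cells, at least 4 libraries per arm) and tested with edgeR 4.0.16 (filterByExpr, TMM, quasi-likelihood, day and arm as terms, Benjamini-Hochberg adjustment, called under 0.05) in R 4.3.3; DESeq2 1.42.0 was an alternative. The procedure was tested on simulated data. Single values were compared by two-sided exact permutation tests.

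The sequencing round within a day pairs the arms, since the sample titles give the round; deviations of same-round libraries correlated with a median r of 0.19 (0.01 to 0.42) over 19 class-days, 14 of them over 0.1. All 10 genes were named, and of the listed pathway genes those called. The members and lists were chosen with earlier results of these data known. Hashing assigned 36.3% of blood endothelial-like cells to a mouse, and day 1 round 1 was not hashed. Fits with mice as units count mice pooled in the same library as separate units.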

Additional observations from a re-analysis of the deposited data

Results flagged for a closer look

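In 92 groups of 4 or 5 libraries, 6 held a library far from the others, where chance gives about 1 in 20 groups. That rate takes the libraries of a group as alike, whereas each group mixed days 1, 2 and 4. In expanded skin, Vegfa in dendritic-like cells was 94.4 CPM on day 4 (next library 49.6 CPM), Vegfc in blood endothelial-like cells was 16.9 CPM on day 4 (next 7.84 CPM), and Vegfa in lymphatic endothelial-like cells was 91.0 CPM on day 1 round 2 (next 43.9 CPM). In macrophage or monocyte-like cells of the expanded day 1 round 1 library, Flt1 was 15.5 CPM (next 2.48 CPM) and Nrp1 was 219 CPM (next 95.7 CPM). In that library the summed level of 5 mural cell markers in the class was 741 CPM, against at most 9.33 CPM in the other expanded libraries, and its part in these values was not tested. In control fibroblast-like cells of day 1 round 1, Nrp1 was lowest at 58.1 CPM (next 87.2 CPM).

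Directions differed between classes without a test of the difference. Vegfa was higher in all 5 expanded pairs in T cell-like (log2 fold change 0.48) and macrophage or monocyte-like cells (1.05) and lower in all 5 in dendritic-like cells (-1.20). For Kdr, 5 of 5 pairs were higher in the macrophage or monocyte-like class (2.82) and 5 of 5 lower in the lymphatic endothelial-like one (-0.49).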

How the results depend on the processing

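Vegfa in dendritic-like cells changed direction in cluster 20 alone (0.90). The number of the 10 genes called moved by over 1.5 times as follows. In blood endothelial-like cells it was 1 after thinning (4 as reported). In dendritic-like cells it was 0 in cluster 20 alone (3 as reported). In fibroblast-like cells (2 as reported) it was 1 after thinning and at resolution 2, 0 in cluster 1 alone and with mice as units, and 4 in cluster 7 alone. Neither Apln nor Tek was among the genes tested with mice as units, and Tek was not tested after thinning or in cluster 1 alone. Over 13 control and 9 expanded mice, Apln was 1.34 ± 0.942 and 6.37 ± 4.5 CPM, and Tek was 1.05 ± 1.25 and 0.943 ± 0.786 CPM. In lymphatic endothelial-like cells (2) it was 1 with DESeq2 and after thinning. In macrophage or monocyte-like cells (2) it was 0 in cluster 4 alone and 4 with mice as units; it was 3, a smaller move, with DESeq2, the replicate block, library totals, no filter on low counts, thinning and the 10 genes among the clustering genes. In smooth muscle-like cells (2) it was 1 with DESeq2, after thinning and with a 20% mitochondrial limit. In suprabasal keratinocyte-like cells (2) it was 0 after thinning and with mice, where neither Flt1 nor Nrp1 was among the genes tested. In basal ones (0) it was 1 at resolution 2.

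With the replicate block, which pairs arms by day and round, 1 gene was called in smooth muscle-like cells. The endothelial share differed by 4.84 points within pairs, where an exact sign-flip permutation cannot reach 0.05, and by 1.80 points (exact permutation p = 0.302) over all kept cells. Thinned shares that passed were Angpt2 in fibroblast-like (-14.5 points) and smooth muscle-like cells (-17.5), Vegfa in dendritic-like cells (-9.69) and Vegfc in cluster 3 (21.5).

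Leaving out single libraries gave 2 to 4 called genes in blood and 1 to 2 in lymphatic endothelial-like cells. It was 1 to 4 for macrophage or monocyte-like, 1 to 2 in smooth muscle-like and 0 to 2 in suprabasal keratinocyte-like cells. Share differences ranged in points for Angpt2 from -26.9 to -19.5 (fibroblast-like), 12.7 to 19.3 (lymphatic endothelial-like) and 2.42 to 10.8 (macrophage or monocyte-like), for Apln from -12.6 to -7.20 (fibroblast-like), for Vegfa from -11.0 to -8.11 (dendritic-like), -31.7 to -23.5 (fibroblast-like) and 14.9 to 25.1 (macrophage or monocyte-like), for Vegfc from -29.3 to -21.3 (fibroblast-like) and 16.5 to 22.2 (cluster 3), and for the endothelial share from 3.48 to 5.69. The causes were not tested. Scaling to library totals moved the share of called genes that were higher from 44.6% to 61.9% in blood endothelial-like, 44.4% to 76.5% in dendritic-like, 49.6% to 76.4% in fibroblast-like and 46.2% to 55.8% in macrophage or monocyte-like cells. Library totals, the 20% mitochondrial limit and single clusters were chosen after seeing the data.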

Other observations

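Esm1 UMIs of T cell-like cells lay in cluster 10, led by Il17a, Ctla4 and Foxp3, at 8.23 ± 11.2 CPM in control and 16.4 ± 18.3 CPM in expanded libraries (SD, n = 5), with libraries from 0 to 46.6 CPM.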
